A study of Rattus norvegicus with 12 samples.

Results

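The intestinal alkaline phosphatases Akp3 and Alpi, the tissue-nonspecific alkaline phosphatase Alpl and the sodium-dependent phosphate transporters Slc34a2, Slc20a1 and Slc20a2 were followed along the small intestine of Belgrade rats. These 6 genes, of 14218 genes with a probe set of their own on the array, were read through all 7 probe sets that the platform annotation assigned to 1 of them alone. They were picked by name and not by their values here. The Belgrade strain carries a mutation in Slc11a2, the gene of an iron transporter of the gut, and homozygotes (b/b) are known to be anaemic. The mutation is known as an amino acid substitution, so the Slc11a2 transcript level does not check the genotype labels. RNA from intestinal scrapes was hybridised to Affymetrix rat expression arrays in 4 groups of 3 arrays: b/b jejunum, +/b jejunum, b/b duodenum and +/b duodenum, where +/b rats are heterozygous carriers of the same allele. According to the series design, 6 groups of rats, 3 of each genotype, supplied both segments, so a replicate is a pool of rats and not an animal. The labels state no age, sex or diet, and no wild-type rats were among the groups.

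Alkaline phosphatases are zinc enzymes that a glycosylphosphatidylinositol (GPI) anchor holds on the outer face of the cell membrane, where they release inorganic phosphate from phosphate esters and pyrophosphate. The intestinal forms sit on the brush border of absorptive cells and are known for removing phosphate from bacterial lipopolysaccharide and nucleotides and for a part in fat absorption. In mouse, Akp3 is the form of the duodenum. Free phosphate crosses the brush border partly through the cotransporter encoded by Slc34a2, whose segment pattern is known to differ between species, whereas the products of Slc20a1 and Slc20a2, which also serve as retrovirus receptors, are present in most tissues.

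Alpi and Akp3 are neighbours on rat chromosome 9, where they lie on opposite strands with starts 27801 bases apart and pointing away from each other (RefSeq, GRCr8). Their promoters are shown because the genes sit side by side and differed in their segment pattern as described after them. Each run gives the 250 bases before the start, 5′ to 3′ on the strand of the gene, and capitals mark the 7 stretches of at least 8 letters that both promoters hold. In Akp3, CTGTAGACA and CACACCCTG overlap and form 1 run of capitals. The Akp3 window is chr9:95252331-95252580 on the plus strand and the Alpi window is chr9:95224781-95225030 on the minus strand.
Akp3: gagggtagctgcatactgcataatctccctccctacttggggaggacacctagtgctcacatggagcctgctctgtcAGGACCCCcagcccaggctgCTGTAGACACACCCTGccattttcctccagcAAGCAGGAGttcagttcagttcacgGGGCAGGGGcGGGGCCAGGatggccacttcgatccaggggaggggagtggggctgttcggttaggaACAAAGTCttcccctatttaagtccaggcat
Alpi: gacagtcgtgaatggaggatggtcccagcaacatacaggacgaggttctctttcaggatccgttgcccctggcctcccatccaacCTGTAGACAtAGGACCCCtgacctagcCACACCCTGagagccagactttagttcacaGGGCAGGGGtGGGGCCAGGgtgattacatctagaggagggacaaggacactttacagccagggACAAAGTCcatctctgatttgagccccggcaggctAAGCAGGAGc

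The shared stretches covered 59 bases of the Akp3 window and 61 of the Alpi window. The pair GGGCAGGGG and GGGGCCAGG lay at 97 and 87 bases before the start in Akp3, and at 108 and 98 bases in Alpi, so that both promoters hold these 2 stretches in the same order and 1 base apart. The stretch ACAAAGTC began 31 bases before the start of Akp3 and 45 bases before that of Alpi, and 0.8515% of 33469 rat promoters of the same length hold it on either strand. It contains CAAAGTC, found in 3.95% of promoters, the first letters of CAAAGTCCA, a motif of the enterocyte factor HNF4. The full CAAAGTCCA was present 1 time in the Alpi window and 0 times in the Akp3 window, and 0.3376% of promoters hold it. Both strands were searched, and the 2 motifs overlap by construction. The GC box GGGCGG, in 30.47% of promoters, occurred 1 time for Akp3, 4 times for Alpl and 0 times for Alpi and Slc34a2. TATAAA, the CDX motif TTTATG and the GATA motif AGATAA were in 0 of these 4 windows, against 12.93%, 11.44% and 10.3% of all promoters. These are matches of letters, and binding was not measured. Promoters of 4 of the 6 genes were in the sequence table used here.

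Signals are the deposited intensities after every array was brought to a 2% trimmed mean of 500. This multiplied +/b duodenum replicates 2 and 3 by 9.69 and 3.95 and left the other 10 arrays nearly as deposited. Median scaled signals per array were between 108 and 181, and the number of arrays limits the precision. The 8 enterocyte markers had summed signals of 152677 to 408237 in b/b jejunum, 158429 to 351617 in +/b jejunum, 163268 to 572310.5 in b/b duodenum and 213578 to 412341 in +/b duodenum. The replicate 1 array was the highest of its group in all 4 groups for this sum. Exocrine pancreas markers summed to 156002 on +/b duodenum replicate 2 and 7618 on b/b duodenum replicate 3, against 1105 to 1753 on the other 10 arrays. Crypt markers summed to 4096 to 6508 in b/b jejunum, against 2306 to 3138 in b/b duodenum, and to 5760 to 9890 in +/b jejunum, against 2984 to 6969.9 in +/b duodenum. Blood markers summed to 9972 to 17227 on b/b arrays and 1776 to 3379 on +/b arrays. The 2 neutrophil markers measured summed to at most 126 on any array, and the Brunner gland marker Muc6 had no probe set of its own. The array of b/b duodenum replicate 1 had a median Spearman correlation of 0.837 with the other 11 arrays, against 0.876 to 0.918 for those 11. In scrapes, fewer cells of a type and less RNA per cell cannot be told apart.

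Akp3 was the member that differed most between the segments. Its probe set read 81.1, 16.5 and 713 in b/b jejunum, against 8876, 12427 and 7144 in b/b duodenum (replicates 1, 2 and 3). The +/b groups read 59.2, 22.9 and 345 in jejunum, against 5137, 4417 and 5343 in duodenum. All 6 jejunum arrays lay below all 6 duodenum arrays, and in both genotypes the replicate 3 jejunum array was the highest of its group. Means were 270 ± 385 in b/b jejunum and 9482 ± 2693 in b/b duodenum, and 142 ± 176 in +/b jejunum and 4966 ± 486 in +/b duodenum (SD, n = 3 arrays each). The fitted change, jejunum over duodenum on the scale of log2(scaled signal + 16), was -6.13 ± 0.89 in b/b rats (SE, limma adjusted p = 0.00537) and -5.61 ± 0.89 in +/b rats (limma adjusted p = 0.0371). On the unfloored signals the segments differed 109-fold, 753-fold and 10.02-fold in the 3 groups of b/b rats, and 86.7-fold, 193-fold and 15.5-fold in the 3 groups of +/b rats. The low jejunum values of replicates 1 and 2, near the dim end of the arrays, make these folds imprecise.

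Markers of other cells were also compared between the segments. Over all tested probe sets, 58.1% had higher readings in jejunum in b/b rats and 56.6% in +/b rats. In both genotypes 5 of 5 tested crypt markers, 4 of 4 fibroblast markers and 2 of 2 Paneth cell markers had higher readings in jejunum, with medians of 1.09, 1.05 and 2.73 on the log2 scale in b/b rats and 0.65, 0.72 and 2.03 in +/b rats. Of these 11 only Pla2g2a, a secreted phospholipase of Paneth cells, passed, in b/b rats (3.79 ± 0.64, limma adjusted p = 0.0122). Its +/b change was 2.79 ± 0.64 (limma adjusted p = 0.243). The 3 tested endothelial markers and the 3 tested T and B cell markers were also higher in jejunum in both genotypes. Goblet cell markers were higher there for 3 of 5 in b/b rats and 1 of 5 in +/b rats. Smooth muscle markers were higher for 4 of 5 and 2 of 5. Of the exocrine pancreas markers, 10 of 10 tested had lower readings on average in jejunum in both genotypes, with 0 past the threshold. In +/b rats this rested on duodenum replicate 2, where the mean log2 level of these markers was 13.8. It was 5.93 and 6.10 on the other +/b duodenum arrays, and 6.51, 6.05 and 5.96 in +/b jejunum. In b/b rats this level was 6.93, 6.47 and 9.33 in duodenum and 6.42, 6.19 and 6.07 in jejunum. The b/b segments thus lay furthest apart on replicate 3. The part of these cells in the segment changes of Akp3 and Slc34a2 was not tested.

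**Figure D1:**
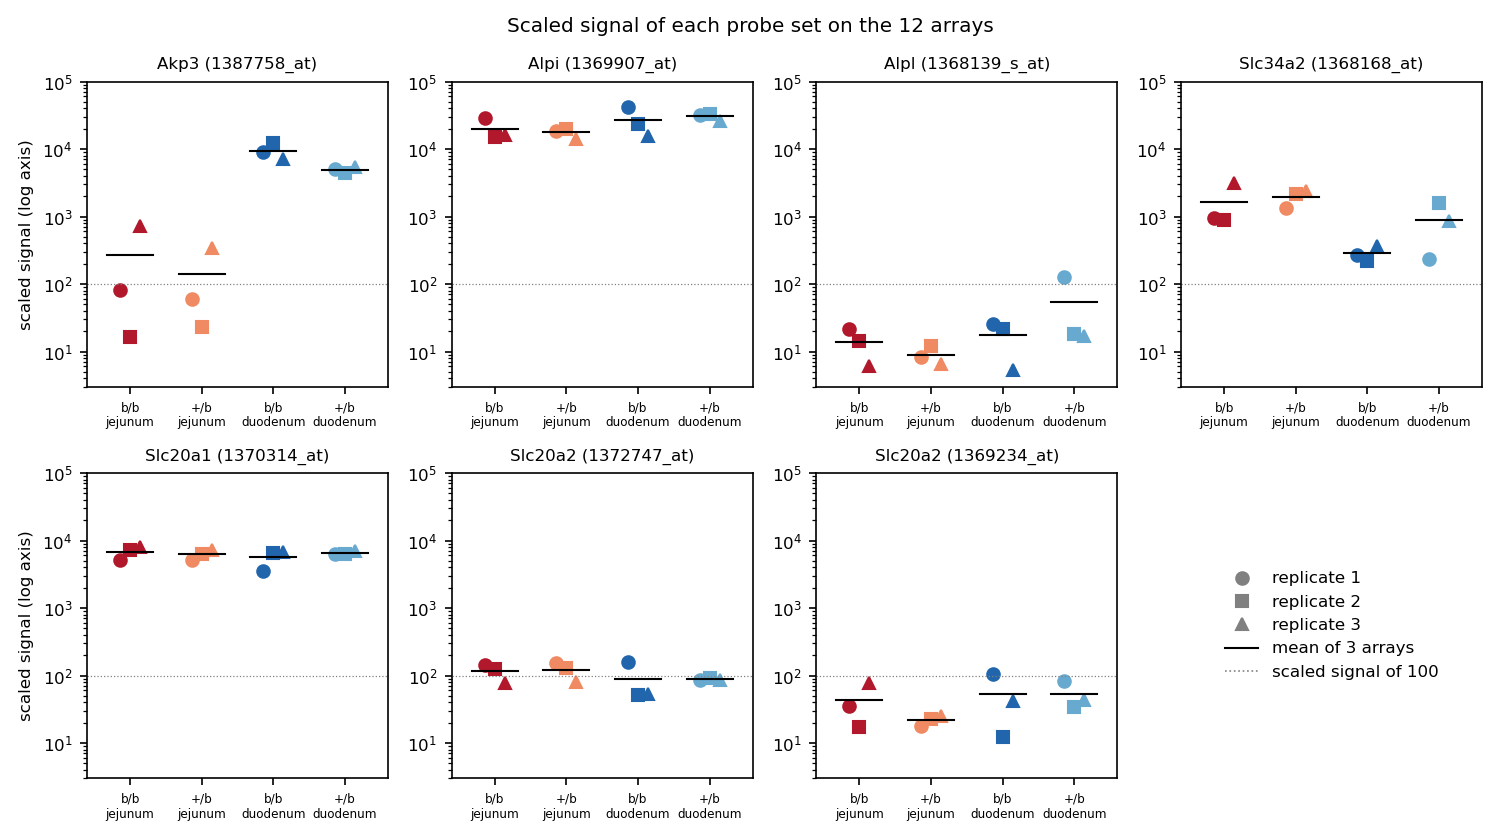
Scaled signal (log axis) of the 7 probe sets on the 12 arrays. Points are arrays with the replicate given by the marker, short black lines are means of 3 arrays and the dotted line is the mean signal of 100 that a probe set needed to be tested; Akp3 lies between 16.5 and 713 on jejunum arrays and between 4417 and 12427 on duodenum arrays.

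The count of members past the threshold was 1 of 5 tested probe sets in each genotype, Akp3 both times, against 0.763% of all tested probe sets in b/b rats and 0.0565% in +/b rats. Alpl and the dimmer Slc20a2 probe set averaged under 100 and were not tested. The groups of 3 arrays did not overlap for 2 of 5 members in b/b rats, Akp3 and Slc34a2 (14.8% of all probe sets), and for 2 of 5 in +/b rats, Akp3 and Alpi (10.8%). The b/b call of Akp3 held in each fit that left out 1 array, with limma adjusted p between 2.50e-04 and 0.0437. The +/b call was weaker: limma adjusted p ran from 0.0151 without +/b jejunum replicate 3 to 0.278, and the call was lost without any 1 of the other 5 arrays of the comparison. Without both arrays that had been multiplied up, 1 +/b duodenum array was left and assumed to vary like the other groups, and limma adjusted p was 0.284. With the pairing by group of rats as a block, limma adjusted p was 0.00171 in b/b rats and 0.00864 in +/b rats. In that paired fit 2 of 5 members passed in each genotype, with Slc34a2 added in b/b rats and Alpi in +/b rats.

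Alpi, the other intestinal alkaline phosphatase, was bright on every array and differed less between the segments than Akp3. Its probe set read 29178, 15077 and 16039 in b/b jejunum, against 41908, 23657 and 15731 in b/b duodenum. The +/b groups read 18748, 19834 and 14116 in jejunum, against 32274, 32636 and 26209 in duodenum. The b/b segments overlapped, whereas every +/b jejunum array lay below every +/b duodenum array. Means were 20098 ± 7878 in b/b jejunum and 27099 ± 13424 in b/b duodenum, and 17566 ± 3037 in +/b jejunum and 30373 ± 3610 in +/b duodenum (SD, n = 3 each). The change was -0.38 ± 0.34 in b/b rats (limma adjusted p = 0.813) and -0.80 ± 0.34 in +/b rats (limma adjusted p = 0.897), with intervals of -1.12 to 0.36 and -1.53 to -0.06. With 1 array left out the b/b change ran from -0.71 to -0.0083, the value nearest 0 without b/b duodenum replicate 1. With the pairing by group of rats as a block, the +/b change was -0.80 ± 0.14 and passed (limma adjusted p = 0.0339). In +/b rats the 3 paired changes were -0.78, -0.72 and -0.89, and in b/b rats -0.52, -0.65 and 0.03.

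The segment difference of Akp3 was larger than that of Alpi in all 6 groups of rats. The Akp3 change minus the Alpi change averaged -5.28 on the log2 scale (SD 1.86 over 6 groups of rats, -7.93 to -2.999). The exact sign-flip permutation test, two-sided, gave p = 0.03125, the smallest that its 64 sign patterns allow. Because Akp3 was already known to differ between the segments here, this p describes the paired arrays and is no independent evidence. The test also took the 6 groups of rats as independent, although the Akp3 changes went with the replicate number. For replicates 1, 2 and 3 they were -6.52, -8.58 and -3.30 in b/b rats and -6.10, -6.83 and -3.89 in +/b rats. Probe sequences were not used here, and how far either probe set also reads the related gene was not tested.

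**Figure D2:**
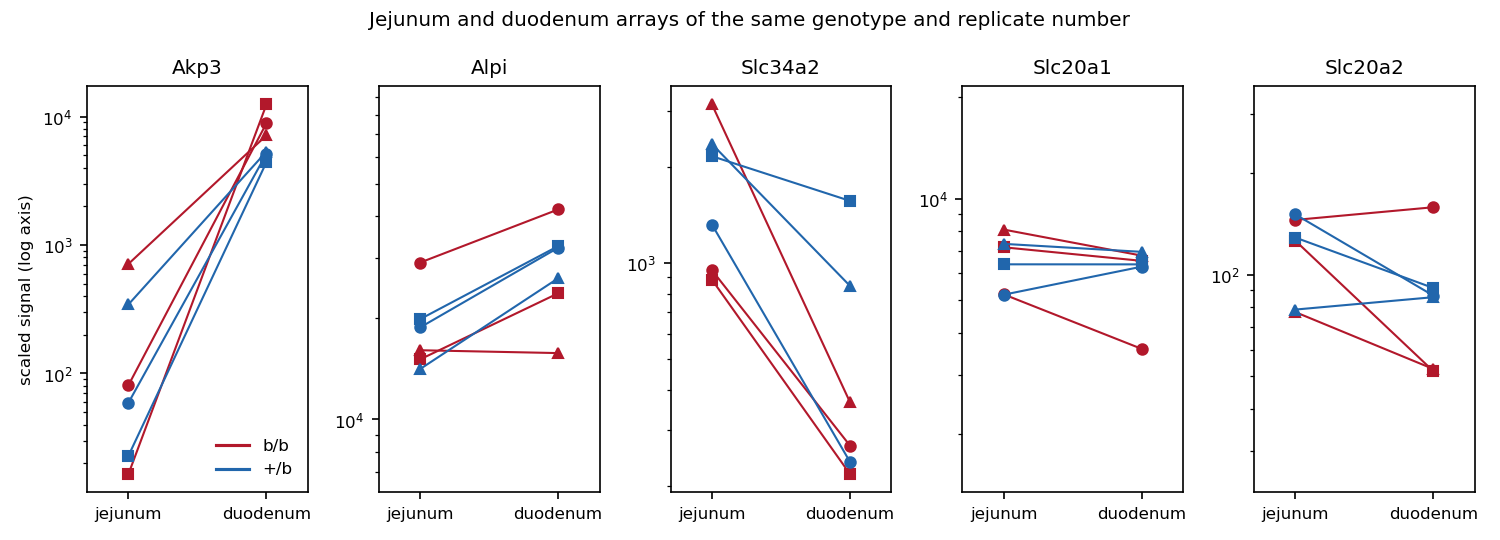
Scaled signals (log axis, own range in each panel) of the 5 tested members, with jejunum left and duodenum right and lines joining the 2 arrays of 1 group of rats (red b/b, blue +/b; circle, square and triangle for replicates 1, 2 and 3). The duodenum end is the higher one in 6 of 6 lines for Akp3, in 5 of 6 for Alpi and in 0 of 6 for Slc34a2.

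Alpl, known as the enzyme of bone, liver and kidney, was close to the dim end of the arrays. Its probe set read 21.5, 14.3 and 6.05 in b/b jejunum, against 25.6, 21.9 and 5.37 in b/b duodenum. In +/b rats it read 8.16, 12.0 and 6.54 in jejunum, against 129, 17.9 and 17.1 in duodenum. One array, +/b duodenum replicate 1, stood above the other 11, whose values ended at 25.6, and the gene was not tested for its low mean of 23.8. A low reading of this probe set gives no measure of how much Alpl the scrapes held relative to the intestinal enzymes, since probe sets differ in brightness.

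Slc34a2, the brush border phosphate cotransporter, had its higher readings in jejunum. Its probe set read 948, 886 and 3136 in b/b jejunum, against 268, 218 and 367 in b/b duodenum. Every b/b jejunum array lay above every b/b duodenum array. In +/b rats it read 1318, 2159 and 2356 in jejunum, against 238, 1564 and 848 in duodenum, and the segments overlapped. Means were 1657 ± 1281 in b/b jejunum and 284 ± 75.6 in b/b duodenum, and 1945 ± 551 in +/b jejunum and 883 ± 664 in +/b duodenum (SD, n = 3 each). The change was 2.25 ± 0.57 in b/b rats (interval 1.03 to 3.48, limma adjusted p = 0.122) and 1.44 ± 0.57 in +/b rats (0.21 to 2.66, limma adjusted p = 0.859), so neither passed. With 1 array left out the +/b change ran from 0.70 without +/b duodenum replicate 1 to 2.02 without replicate 2 of that group. Jejunum was higher in each of the 6 groups of rats, by 1.76, 1.95 and 3.04 in b/b and by 2.39, 0.46 and 1.46 in +/b. With that pairing as a block, the b/b change passed (2.25 ± 0.33, limma adjusted p = 0.00445) and the +/b change did not (limma adjusted p = 0.12).

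The scaled +/b duodenum values of Slc34a2 differed more than the deposited ones. As deposited, its 3 +/b duodenum arrays read 238, 161 and 215, and the 2 scaled-up arrays became 1564 and 848, the values that overlapped with jejunum. The deposited trimmed means of the 3 arrays were 500.2, 51.6 and 126.6, so the deposited readings do not share a scale. Its percentile within each array, which scaling does not alter, was 62.1, 90.2 and 82.6. Without these 2 scaled-up arrays, which left +/b duodenum replicate 1 alone, the +/b change was 2.90. The array with 1564 was also the array with an exocrine pancreas sum of 156002. Over the 6 duodenum arrays Slc34a2 and the mean log2 level of the pancreas markers had r = 0.72, a description that rests on the 2 arrays with sums of 156002 and 7618. The part of pancreas RNA in this value was not tested.

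The widely expressed transporters had similar readings in the segments. Slc20a1, a type III sodium-phosphate cotransporter, read 5203, 7173 and 8095 in b/b jejunum, against 3587, 6539 and 6777 in b/b duodenum. The readings in +/b rats were 5190.3, 6386 and 7342 in jejunum, against 6284, 6384 and 6953 in duodenum. The segments overlapped in both genotypes, and b/b duodenum replicate 1 was the lowest of the 12 arrays. The change was 0.31 ± 0.25 in b/b rats (interval -0.24 to 0.85) and -0.07 ± 0.25 in +/b rats (-0.61 to 0.48, limma adjusted p = 0.781 and 0.996). These intervals leave room for changes of up to 0.85 on the log2 scale in b/b rats. With 1 array left out the b/b change ran from 0.011, without b/b duodenum replicate 1, to 0.49.

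Slc20a2 was dim and its 2 probe sets disagreed. The brighter averaged 102.8 over the 12 arrays, just above the minimum of 100. It read 145, 126 and 77.5 in b/b jejunum, against 158, 51.8 and 52.5 in b/b duodenum. In +/b rats it read 151, 129 and 78.8 in jejunum, against 86.7, 91.3 and 85.8 in duodenum, and the segments overlapped in both genotypes. Its change was 0.47 ± 0.47 in b/b rats (limma adjusted p = 0.844) and 0.34 ± 0.47 in +/b rats (limma adjusted p = 0.981), with jejunum higher in 4 of 6 groups of rats. The dimmer ranged from 12.2 to 105, and on it jejunum was higher in 2 of 6 groups of rats. No direction is given for this gene.

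**Figure D3:**
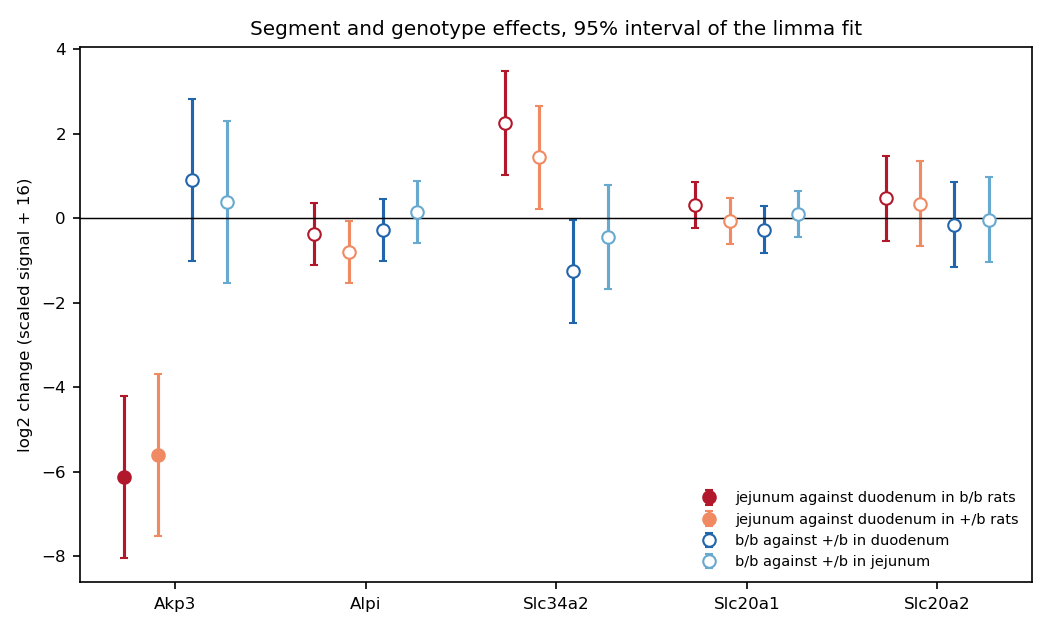
Fitted log2 changes of the 5 tested members with the 95% interval of the limma fit; filled circles mark adjusted p under 0.05. Akp3 is filled in both segment comparisons (-6.13 and -5.61), and the 10 genotype comparisons are open.

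The genotype comparison asked whether these genes differed between b/b and +/b rats, and 0 of 5 members passed the threshold in either segment. Of all probe sets, 0.0396% passed in the duodenum and 0.0339% in the jejunum. In the duodenum Akp3 had higher readings in b/b rats (7144 to 12427) than in +/b rats (4417 to 5343), without overlap, which 8.7% of all probe sets showed and 3.18% in this direction. Its change was 0.90 ± 0.89, with an interval of -1.02 to 2.81 (limma adjusted p = 0.902). The SE pooled the spread of all 4 groups, of which the jejunum groups varied most on the log scale. When the duodenum groups were fitted alone the SE was 0.26 and limma adjusted p was 1. In the jejunum Akp3 had 0.37 ± 0.89 with overlapping groups (-1.54 to 2.29). Beside this, all 5 tested crypt markers (median -0.96) and both tested Paneth cell markers (median -1.04) had lower readings on average in b/b duodenum. So did all 10 pancreas markers (median -0.94), 5 of 5 goblet cell markers (-0.15) and 5 of 5 smooth muscle markers (-0.29). Fibroblast markers were lower for 3 of 4 and enterocyte markers for 6 of 8. Endothelial markers were higher for 2 of 3, as were T and B cell markers. Of all these markers 0 passed the threshold, and 44.5% of all probe sets had changes above 0. The pancreas difference rested on +/b duodenum replicate 2, where the mean log2 level of these markers was 13.8. It was 5.93 and 6.10 on the other +/b duodenum arrays, and 6.93, 6.47 and 9.33 on the b/b duodenum arrays. The blood markers were higher in b/b duodenum, Hbb, a beta-globin, by 2.43 ± 0.26 (limma adjusted p = 0.00121) and Alas2, the haem synthesis enzyme of red cell precursors, by 2.35 ± 0.41 (limma adjusted p = 0.105), without overlap. The part of these cells in the Akp3 readings was not tested.

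Slc34a2 had lower readings in b/b duodenum on average (-1.26 ± 0.57, limma unadjusted p = 0.0451, adjusted p = 0.789), with overlapping groups. Without the 2 scaled-up +/b arrays, which left +/b duodenum replicate 1 alone, this difference was 0.21. In the jejunum it had -0.44 ± 0.57 (-1.67 to 0.78). Alpi had -0.27 ± 0.34 in duodenum (-1.01 to 0.46) and 0.14 ± 0.34 in jejunum (-0.59 to 0.88). Slc20a1 had -0.27 ± 0.25 in duodenum (-0.82 to 0.28) and 0.10 ± 0.25 in jejunum (-0.44 to 0.65). Slc20a2 had -0.16 ± 0.47 and -0.03 ± 0.47. Limma adjusted p lay between 0.893 and 1 for these 3 genes in both segments, and intervals of this width include changes of 0.46 or more in either direction for Alpi and 0.28 or more for Slc20a1. In the jejunum the groups overlapped for 5 of 5 members, and 7.9% of all probe sets did not overlap there.

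The order of group means was thus b/b duodenum, +/b duodenum, b/b jejunum and +/b jejunum for Akp3, from high to low, where the neighbours of the same segment did not pass the test. For Alpi it was +/b duodenum, b/b duodenum, b/b jejunum and +/b jejunum, with no neighbouring pair past the threshold. For Slc34a2 it was +/b jejunum, b/b jejunum, +/b duodenum and b/b duodenum, where the neighbours of the same segment did not pass and the middle pair, for which no contrast was fitted, overlapped. The interaction, the genotype effect in jejunum minus that in duodenum, was -0.52 ± 1.26 for Akp3 (-3.23 to 2.19), 0.42 ± 0.49 for Alpi, 0.81 ± 0.81 for Slc34a2, 0.37 ± 0.36 for Slc20a1 and 0.12 ± 0.66 for Slc20a2. Limma called 0 of these 5 and 0 of all 17694 probe sets (0%), with 306 (1.73%) at an unadjusted p under 0.05.

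Alpi readings were high on the arrays with high enterocyte markers, while over the 12 arrays those of Akp3 were not. Over the 12 arrays, which share scaling and come in pairs from 6 groups of rats, Alpi and the mean log2 level of the 8 enterocyte markers had r = 0.83, with 0.94 within the 6 duodenum and 0.81 within the 6 jejunum arrays. For Slc20a1 r was -0.84, with -0.77 in duodenum and -0.93 in jejunum. Goblet cell markers gave 0.74 with Alpi (0.96 in duodenum, 0.78 in jejunum) and -0.78 with Slc20a1. The brighter Slc20a2 probe set had 0.66 with the enterocyte markers (0.84 in duodenum, 0.96 in jejunum). The dimmer one had 0.25 with them (0.61 and -0.45). For Akp3 r with the enterocyte markers was 0.05 over all 12, -0.08 in duodenum and -0.69 in jejunum. Akp3 had r = -0.84 with Paneth cell markers (-0.60 in duodenum, -0.56 in jejunum), -0.77 with endothelial markers (-0.23 and -0.54), -0.66 with crypt markers (-0.84 and 0.18) and -0.63 with fibroblast markers (0.13 and -0.48). With blood markers it had 0.21 over all 12 and 0.79 within duodenum, where the blood markers separate the genotypes. Slc34a2 had 0.66 with crypt markers (0.29 and 0.39) and 0.59 with Paneth cell markers (0.25 and -0.64). Values over all 12 arrays include the difference between the segments. On b/b duodenum replicate 1, the array with the highest enterocyte sum, Alpi read 41908, its highest value, and Slc20a1 read 3587, its lowest. The bright end of the arrays also differed by replicate. The highest scaled signal on replicates 1, 2 and 3 was 145043, 48031 and 33082 in b/b duodenum and 104403, 86074 and 51250 in +/b duodenum. In jejunum it was 95180, 52551 and 30742 in b/b rats and 85087, 57423 and 32318 in +/b rats. The part of cell content or of this bright-end range in these readings was not tested. The enterocyte markers themselves had a median segment change of -0.15 in b/b rats and -0.37 in +/b rats, with 8 of 8 below 0 in each and 0 past the threshold, beside -6.13 and -5.61 for Akp3.

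**Figure D4:**
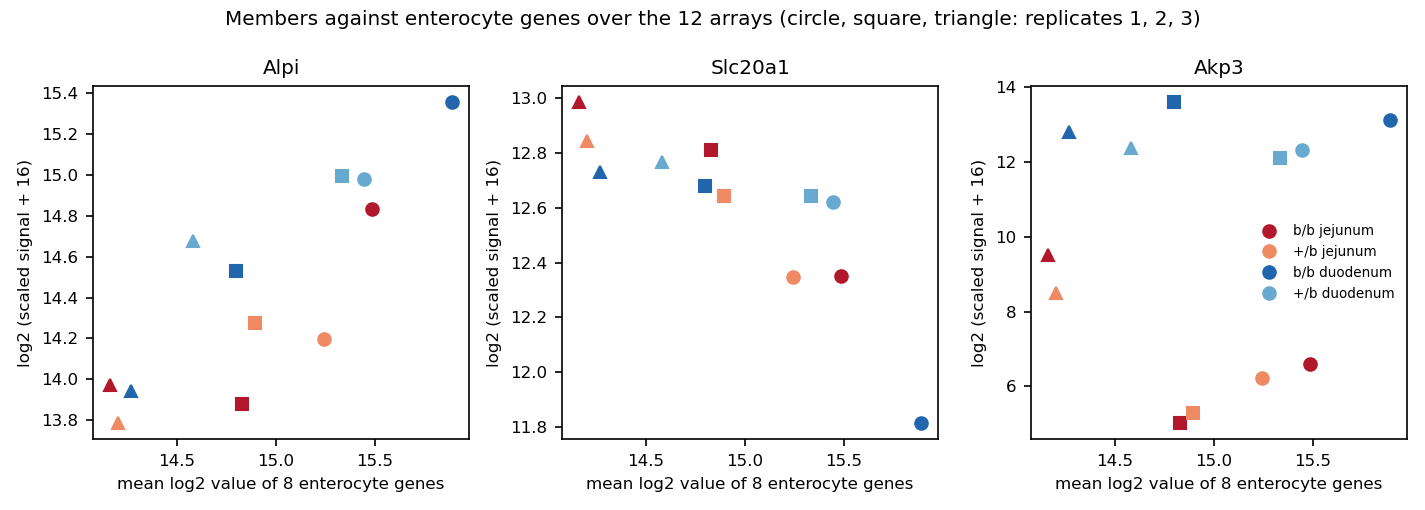
Alpi, Slc20a1 and Akp3 (log2 of scaled signal + 16) against the mean log2 value of the 8 enterocyte markers on the 12 arrays. Alpi is higher where the markers are higher (r = 0.83), Slc20a1 is lower there (r = -0.84), and Akp3 separates by segment (r = 0.05).

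The genes whose readings were most like those of Akp3 over the 12 arrays, among 13496 single-gene probe sets, were Slc40a1, the basolateral iron exporter (Pearson r = 0.96), the bicarbonate cotransporter Slc4a7 (0.96), Htatip2 (0.95), the thioredoxin reductase Txnrd1 (0.95) and the organic anion exporter Abcc2 (0.94). All 5 had lower readings in jejunum, with segment changes of -3.60, -2.95, -1.98, -0.77 and -0.82 in b/b rats, of which the first 3 passed (limma adjusted p = 8.28e-04, 0.0100 and 8.89e-05). In +/b rats Slc40a1 (limma adjusted p = 0.0363) and Htatip2 (0.00389) passed. Within segments r with Slc40a1 was 0.72 over the 6 duodenum and 0.78 over the 6 jejunum arrays, which were part of the pick. In jejunum Slc40a1 read 923, 674 and 2070.3 in b/b rats and 674, 1367 and 1853 in +/b rats, so that replicate 3 was the highest of each group, as for Akp3.

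Abcc2 (r = 0.94) and Slc4a7 (0.93) were close to Akp3 within the jejunum but less so within the duodenum (0.40 and 0.35). In jejunum Abcc2 read 1992, 1502 and 3164 in b/b and 1799.8, 1703 and 2155 in +/b rats. The high Akp3 readings of the jejunum replicate 3 arrays came with high readings of Slc40a1, Abcc2 and Slc4a7. These genes were picked for their likeness to Akp3 on these same arrays, so this is no independent evidence. S100g, which is also lower in jejunum, did not share the high replicate 3 readings. It read 902, 1142 and 793 in b/b jejunum and 1210.4, 1817 and 1311 in +/b jejunum. Slc34a2, which is higher in jejunum, was also highest on replicate 3 of both jejunum groups (3136 in b/b and 2356 in +/b rats). The same held for Slc20a1 (8095 and 7342) and the dimmer Slc20a2 probe set (77.4 and 25.3). It did not hold for Alpi, Alpl or the brighter Slc20a2 probe set. The labels do not say where along the gut each scrape was taken, and the part of that position in these values was not tested.

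For Alpi the most alike were Mogat2 (r = 0.96), an enzyme of fat re-esterification in enterocytes, Ada (0.95), adenosine deaminase, and Prap1 (0.95). For Slc34a2 they were Lsm14a (0.94), Gcg (0.92), the proglucagon gene of enteroendocrine cells, and Alg5 (0.91). Gcg read 414, 1174 and 1155 in b/b jejunum, against 64.6, 109 and 158 in b/b duodenum, and 981, 1440.5 and 1346 in +/b jejunum, against 116, 801 and 195 in +/b duodenum. Like Slc34a2, Gcg was highest in duodenum on the scaled-up +/b replicate 2 array. For Slc20a1 they were Zbtb11 (0.95), Zfp236 (0.93) and Gpkow (0.92), and for Slc20a2 Atp2a3 (0.95), Fyb1 (0.95) and Cln3 (0.94). With 13496 candidates and 12 arrays, the highest of many values of r is taken, and these are descriptions.

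Among other genes of phosphate and pyrophosphate handling, 1 passed the threshold between the segments, in b/b rats. Of 27 listed genes 26 had a probe set and 15 were tested. In b/b rats 1 of 15 fell and 0 rose, with a median change of -0.08 beside 0.07 over all probe sets, and in +/b rats 0 of 15 passed (median -0.18 beside 0.05). The gene that fell was Ankh, whose membrane protein supplies extracellular pyrophosphate, a substrate of alkaline phosphatases. Ankh read 984, 835 and 977 in b/b jejunum, against 1426, 3133 and 3545 in b/b duodenum (-1.42 ± 0.27, limma adjusted p = 0.0261), without overlap. In +/b rats it read 755, 774 and 874 in jejunum, against 1225, 1372 and 1455 in duodenum, also without overlap (-0.74 ± 0.27, limma adjusted p = 0.792). Enpp1, which makes pyrophosphate from nucleotides, had -1.09 ± 0.33 in b/b rats (limma adjusted p = 0.23) and -0.45 ± 0.33 in +/b rats, and its relative Enpp3 had -0.20 ± 0.22 and -0.64 ± 0.22. The phosphate exporter Xpr1 had -0.08 ± 0.22 in b/b and -0.35 ± 0.22 in +/b rats. The apical organic anion and phosphate carrier Slc17a4 had 0.60 ± 0.30 and 0.36 ± 0.30.

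Among vitamin D targets, 8 of 11 listed genes were tested, and 2 fell in b/b jejunum and 1 in +/b jejunum (medians -0.32 and -0.67). S100g, the calcium-binding protein of enterocytes, had the lowest changes, -4.61 ± 0.30 in b/b rats (limma adjusted p = 6.92e-06) and -4.03 ± 0.30 in +/b rats (limma adjusted p = 4.01e-05). The calcium pump Atp2b1 fell in b/b rats (-2.45 ± 0.39, limma adjusted p = 0.00915) and had -1.46 ± 0.39 in +/b rats (limma adjusted p = 0.433). Trpv6, the apical calcium channel, had -2.30 ± 0.54 in b/b rats (limma adjusted p = 0.0869), and the receptor gene Vdr had -0.23 ± 0.62 in b/b and -0.75 ± 0.62 in +/b rats. S100g was thus low in jejunum with Akp3, whereas Slc34a2 had its higher readings there.

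Among the other brush border hydrolases, 13 of 18 listed genes were measured. In b/b jejunum 2 rose and 0 fell, with a median change of -0.08, and in +/b jejunum 1 rose and 0 fell (median -0.21). Plb1, a brush border phospholipase, averaged 6397 ± 2920.3 in b/b jejunum and 68.8 ± 32.7 in b/b duodenum (6.21 ± 0.62, limma adjusted p = 2.24e-04), and 2819.7 ± 3262 in +/b jejunum and 44.7 ± 20.0 in +/b duodenum (4.95 ± 0.62, limma adjusted p = 0.00847). Naaladl1, a peptidase, rose in b/b jejunum (1.59 ± 0.32, limma adjusted p = 0.0343). Treh, the trehalase, had -0.99 ± 0.32 in b/b and -0.91 ± 0.32 in +/b rats, and the meprin subunit Mep1a had 0.87 ± 0.27 and 0.43 ± 0.27, none past the threshold. Aminopeptidase N (Anpep), a common brush border marker, had -0.12 ± 0.50 and -0.24 ± 0.50. No other hydrolase of the list fell with Akp3 past the threshold.

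Known regulators of intestinal alkaline phosphatase genes did not pass in any comparison. Of 11 listed, 10 were tested, with medians of 0.05 in b/b and 0.09 in +/b rats between the segments. The CDX factor Cdx2 had 0.36 ± 0.19 in b/b rats, Gata4 -0.40 ± 0.19, Hopx -0.40 ± 0.22 and Cdx1 0.57 ± 0.43, with limma adjusted p of at least 0.526. Between genotypes Klf4, a factor known to activate the intestinal alkaline phosphatase gene, had 0.46 ± 0.22 in duodenum (limma adjusted p = 0.789) and 0.29 ± 0.22 in jejunum. The zinc transporters that load alkaline phosphatases in the secretory pathway, Slc30a5, Slc30a6 and Slc30a7, had segment changes of 0.20 ± 0.20, 0.03 ± 0.18 and 0.11 ± 0.24 in b/b rats. Of the 5 tested genes that build or attach GPI anchors, 0 passed, with changes from -0.70 to 0.72 in b/b rats.

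Between genotypes 0 tested genes of these 6 lists passed in the duodenum and 0 in the jejunum. Their medians in the duodenum ran from -0.15 for zinc loading to 0.33 for vitamin D targets, beside -0.05 over all probe sets. Ankh had the highest change of the phosphate list there, 0.89 ± 0.27 (limma adjusted p = 0.702), reading 1426, 3133 and 3545 in b/b duodenum and 1225, 1372 and 1455 in +/b duodenum, with 1 b/b array inside the +/b range.

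**Figure D5:**
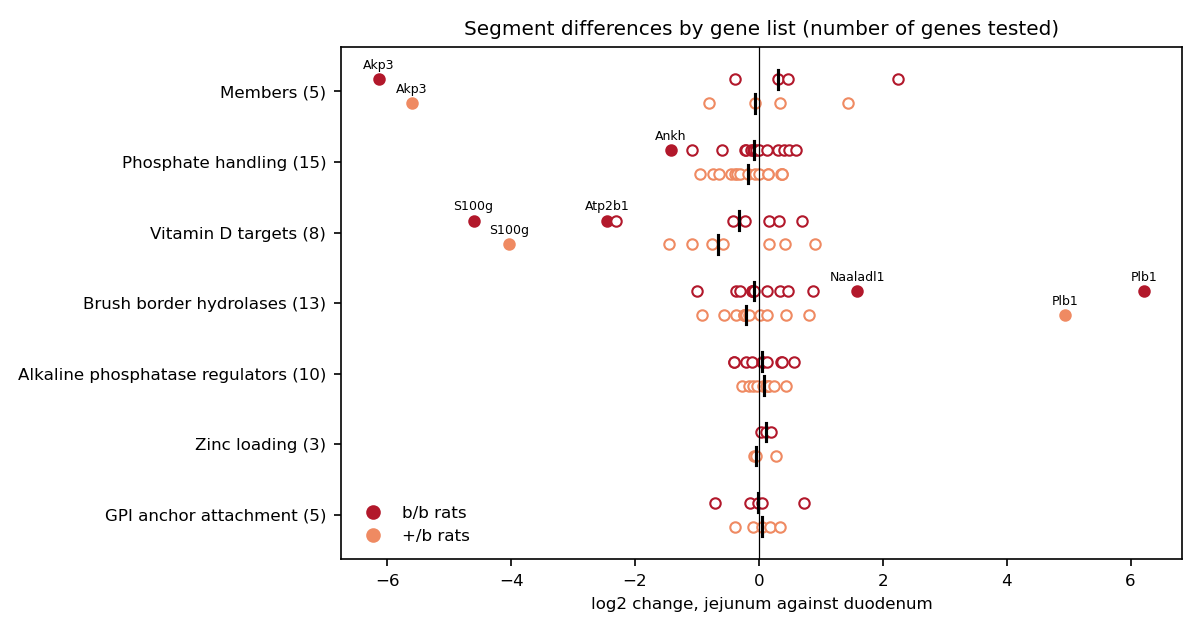
Segment changes (log2, jejunum over duodenum) of the tested members and of 6 gene lists, b/b above +/b in each row. Filled circles passed the threshold and are named, open circles did not, and short black bars are medians; among the phosphate genes Ankh alone is filled, in b/b rats.

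Akp3 was also set against its neighbours on chromosome 9, in the gene order of GRCr8. The alkaline phosphatase genes Alpg and Alpp, next to Alpi, had no probe set of their own. Ecel1, next to Akp3, had -1.21 in b/b and -0.64 in +/b rats (limma adjusted p = 0.555 and 0.966), and Prss56 had -1.14 and -0.78 (limma adjusted p = 0.574 and 0.956), with group means of 65.0 to 184 and 83.3 to 223. Dis3l2 had -0.52 and 0.03, Eif4e2 had -0.24 and 0.04, and Cops7b had 0.10 and -0.02. None of these neighbours passed, and their changes were nearer to 0 than the -6.13 and -5.61 of Akp3. Ecel1 and Prss56 were dim, which limits the size of change that they could show.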

How the data were processed

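The authors deposited 1 intensity per probe set and array on a linear scale. For 10 of the 12 arrays MAS5 is listed, per the submitters' processing notes, with its version not given in the sources used here. The file held 31099 probe sets and 0 columns that belong to no sample. The 2% trimmed mean was 500.2 on 10 arrays and 51.6 and 126.6 on +/b duodenum replicates 2 and 3, so each array was scaled to a trimmed mean of 500. Scaling up also multiplies the noise of dim probe sets. After removal of 57 control probe sets, the 17694 whose scaled signal averaged 100 or more were tested as log2(scaled signal + 16), which understates changes of dim genes.

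In limma 3.58.1, run in R 4.3.3, a model of 4 group means took in all 12 arrays, followed by eBayes with a trend on intensity, two-sided tests and Benjamini-Hochberg adjustment over all 17694 probe sets at a threshold of 0.05. Intervals are 95% intervals of that fit. The fit was also run on simulated data with changes added in b/b duodenum. The simulated noise was independent between arrays, without pairing or rescaled arrays, so that run does not check how the fit handles these. The replicate is a group of rats, so p-values measure the spread between such groups. By the series design, each group of rats supplied a jejunum and a duodenum array, taken here as those with the same genotype and number, and their deviations from the group means correlated at 0.19 to 0.28 in +/b and 0.16 to 0.38 in b/b rats. Arrays with the same number in different rats also deviated together, at 0.12 to 0.42 between b/b and +/b jejunum, 0.14 to 0.45 between b/b duodenum and +/b jejunum and -0.059 to 0.16 between b/b and +/b duodenum, so a number may mark something other than the rats, such as a batch, which the labels do not state. The fit with that pairing as a block is given where it changed a call, and the genotype comparisons were also fitted with the number as a block.

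A gene's summary used its probe set of highest mean. The text describes every probe set of the 6 genes, up to 4 genes of smallest p per context list plus those called, a few other list members chosen after their values were seen, and the 5 (Akp3) or 3 (other members) genes of highest Pearson correlation. The genes and lists were chosen with earlier results of these data known. Alternatives covered the pseudocount, the filter, the scaling, the trend, array weights, the samples fitted, the pairing and each array left out.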

Additional observations from a re-analysis of the deposited data

How the results depend on the processing

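The b/b call of Akp3 between the segments held under every alternative run, while the +/b call did not. Where 1 of 5 members passed in +/b rats, 0 passed with a pseudocount of 1 (Akp3 limma adjusted p = 0.0957), quantile normalization (0.0522), no intensity trend (0.139), array weights (0.0597) or without both rescaled arrays (0.284), and between 0 and 1 when 1 array was left out. Without rescaling 2 passed in +/b rats (Akp3 and Slc34a2), but all changes then carried a median shift of 1.60 and 8673 probe sets were called, against 10. With the replicate block 2 passed in b/b rats (Akp3 and Slc34a2) and 2 in +/b rats (Akp3 and Alpi), against 1 each, and the paired fit changed no other call of a member, with 0 in either genotype comparison when the number was the block. Over all probe sets it gave 431 calls in b/b rats, against 135, 86 in +/b rats, against 10, and 15 in the duodenum genotype comparison, against 7. With no array left out, the calls over all alternatives ran from 40 to 642 in b/b rats, from 2 to 8673 in +/b rats, from 5 to 366 for genotype in the duodenum and from 2 to 8 in the jejunum (6), and from 0 to 2 for the interaction (0). Array weights gave 2 members in b/b rats. In the duodenum genotype comparison, leaving out the rescaling gave 1 call, Akp3, against 0, and turned the signs of Alpi (1.48), Slc34a2 (0.43), Slc20a1 (1.47) and Slc20a2 (1.01). It also turned the +/b segment changes of Alpi (0.95) and Slc20a1 (1.67) and the interactions of Alpi (-1.33), Slc34a2 (-0.87), Slc20a1 (-1.37) and Slc20a2 (-1.05), since 2 arrays then kept their lower scale. Without both rescaled arrays, which left +/b duodenum replicate 1 alone, Slc34a2 turned to 0.21 in the duodenum and -0.65 in the interaction. Array weights turned Alpi in the jejunum (-0.044) and quantile normalization turned Slc20a1 between +/b segments (0.039), and the cause was not tested. With 1 array left out, the duodenum genotype changes ran from -0.65 to 0.059 for Alpi, -0.43 to 0.027 for Slc20a1 and -0.61 to 0.074 for Slc20a2. In the jejunum they ran from -0.86 to 1.39 for Akp3, -0.16 to 0.32 for Alpi, -0.031 to 0.29 for Slc20a1 and -0.27 to 0.20 for Slc20a2. The +/b segment change of Slc20a1 ran from -0.18 to 0.067, and the interactions from -1.76 to 0.49 for Akp3 and -0.11 to 0.58 for Slc20a2. The dim Alpl and Slc20a2 readings lie where signal over background limits any comparison.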
